A study of Rattus norvegicus with 60 samples.

Results

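The muscle-enriched miRs rno-miR-206, rno-miR-1, rno-miR-133a and rno-miR-133b were followed in the rat retina after ischemia-reperfusion (IR) injury. They were the 4 miRs, of 350 rat miRs on the array, whose names match miR-1, miR-133a, miR-133b or miR-206 exactly, so that passenger (star) strands were left out. The set was chosen by the measured IR against sham control differences of these arrays, which were known when it was drawn up. Their IR against sham differences are therefore given as descriptions, without p-values, and the calls of the fit across all miRs are printed only as a record. Retinas came from male Long Evan's hooded rats of 250 to 300 g, whose age is not given. In IR animals, a needle in the front chamber of 1 eye held the intraocular pressure at 110 mmHg for 60 min under pentobarbital (50 mg/kg), and retinas were taken at once (0 h) or after 2, 24 or 48 h or 7d of reperfusion. Sham control animals had the same surgery without the rise in pressure. Each of the 10 groups held 6 rats, 1 array per rat, and the RNA was that of the whole retina, so fewer cells of a type and less RNA per cell cannot be told apart.

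These miRs are often called myomiRs. In the body they are best known from skeletal and heart muscle, where myogenic transcription factors switch them on during differentiation. miR-1 and miR-206 carry the same seed, the stretch near the 5′ end that pairs with target mRNAs, and both favor differentiation over proliferation of muscle precursors. The miR-133 pair has another seed and is better known for promoting myoblast growth and restraining cardiac hypertrophy. miR-206 is enriched in skeletal muscle, where it also takes part in the repair of neuromuscular synapses, whereas miR-1 is abundant in the heart.

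The mature sequences are printed to show which members can pair with the same targets and how little separates the members of each pair. All 4 were taken by name, as the 3p strand, from the RefSeq miRNA table (GRCr8). The spacing of the array probes was the same as that of the 3′ ends of these strands. Capitals mark the seed, bases 2 to 8 from the 5′ end.
rno-miR-206: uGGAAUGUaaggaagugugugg
rno-miR-1: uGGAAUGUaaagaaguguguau
rno-miR-133a: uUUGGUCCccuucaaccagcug
rno-miR-133b: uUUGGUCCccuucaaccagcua

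miR-206 and miR-1 were identical at 19 of 22 bases. Read from miR-1 to miR-206 and counted from the 5′ end, the substitutions were A11G, A21G and U22G. miR-133a and miR-133b were identical at 21 of 22 bases and differed by G22A, read from miR-133a to miR-133b. Across the seeds there was little in common, 4 or 5 of 22 bases.

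The 4 genes lie in 2 clusters, each with a member of both seed families. In GRCr8, mature miR-206 lies at chr9:30590747-30590768 and miR-133b at chr9:30594629-30594650, both on the plus strand and both inside the span of the long non-coding RNA gene LOC120094648. miR-133a lies at chr18:2157886-2157907 and miR-1 at chr18:2160339-2160360, both on the minus strand and inside the span of Mib1, which encodes a ubiquitin ligase of the Notch pathway. Only the spans of these 2 genes were used, so their strands, exons and introns were not assigned, and they are not named as host genes. The 3′ ends of miR-133a and miR-1 were 2453 bases apart, and those of miR-206 and miR-133b 3882 bases apart, as were the ends of the probes on the build the array files use (rn4).

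Signals are given as the array's summed signal of a miR, after each array had been brought to a common 75th percentile, taken over the 57 miRs detected on all 60 arrays. On the log2 scale, signals under 6.20 were set to that value (log2 2.63), the median over arrays of the lowest detected signal. The arrays detected 59 to 232 of the 350 miRs (median 137), and the number of arrays limits the precision. IR arrays were dimmer than sham control arrays at 4 of the 5 time points. Array brightness, an array's own 75th percentile relative to that common level (log2), differed between IR and sham by -1.06 at 0 h, 0.04 at 2 h, -2.15 at 24 h, -1.19 at 48 h and -2.58 at 7d. The 9 slides mostly held arrays of 1 treatment, and none held IR and sham arrays of the same time point. As a check of the tissue, the photoreceptor miRs rno-miR-183, rno-miR-96 and rno-miR-182 were detected on all 60 arrays, with a summed signal of 9271 to 17408, and rno-miR-205 and rno-miR-203 of surface epithelium on none.

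The 4 members differed first in whether they could be seen at all. miR-206 was detected on 57 of 60 arrays, on 29 of 30 after IR and on 28 of 30 after sham surgery. The 3 exceptions were sham control replicate 1 at 0 h (scaled signal 6.06), sham control replicate 4 at 2 h (26.1) and IR replicate 4 at 7d (109.6). miR-1 was detected on 11 arrays, 7 of them IR and 4 sham, and its signal lay at or under the floor on 34 arrays. miR-133a was detected on no array, and its background-subtracted signal was below zero on 52 of 60. miR-133b was detected on 7 arrays, every one a sham array of the third scan, with scaled signals of at most 5.46, under the floor. No spot of any member was saturated. Only miR-206 met the filter of detection on all 6 arrays of at least 1 group, which 159 miRs passed. It was detected on all 6 arrays of every IR group but that of 7d, and of the sham groups at 24 h, 48 h and 7d.

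**Figure D1:**
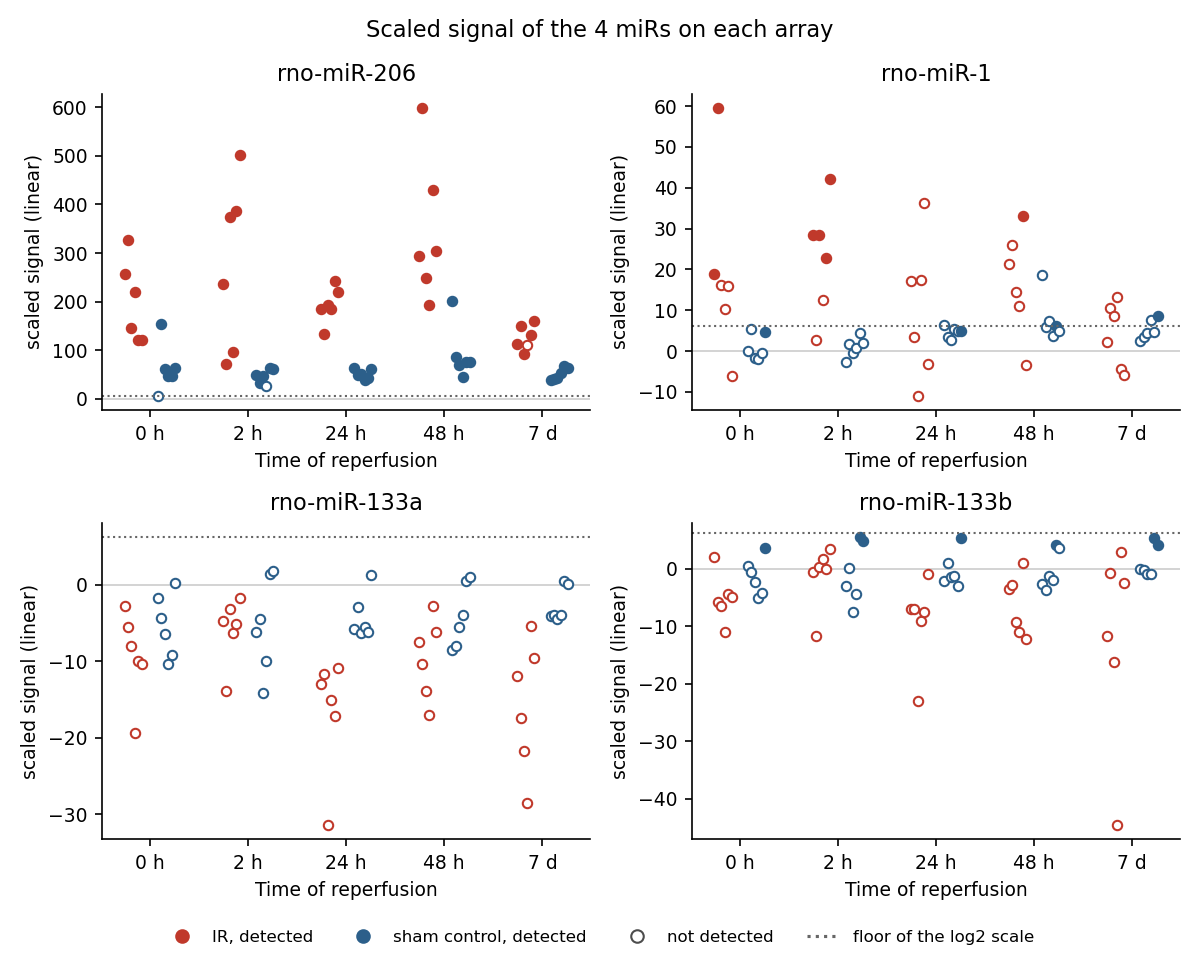
Scaled signal (linear, y axis, a range of its own in each panel) of rno-miR-206, rno-miR-1, rno-miR-133a and rno-miR-133b on each of 60 arrays by time of reperfusion; red points are IR and blue points sham control arrays, open points were not detected, and the dotted line is the floor of 6.20. rno-miR-206 reached 598.9 and rno-miR-1 59.6, whereas every rno-miR-133a and rno-miR-133b point lay under the floor.

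miR-206 was higher after IR than after sham surgery at each of the 5 time points on this scale, by 2.52-fold to 5.03-fold. At the end of ischemia (0 h), its scaled signal was 121 to 326 on the IR arrays (median 183) and 6.06 to 153 on the sham control arrays (median 54.3). The groups overlapped: sham replicate 2, the highest sham array, stood above 3 of the 6 IR arrays. The log2 means were 7.53 ± 0.60 and 5.49 ± 1.53 (SD, n = 6 each), a difference of 2.04 ± 0.42 (SE), or 4.11-fold. The sham spread came largely from replicate 1, which lay at the floor.

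After 2 h of reperfusion, miR-206 was at 72.2 to 501 on the IR arrays (median 306) and at 26.1 to 63.3 on the sham control arrays (median 47.6). Every IR array was above every sham array, but the IR arrays fell into a low pair (72.2 and 96.0) and 4 arrays from 237 upward. The log2 means were 7.79 ± 1.16 and 5.46 ± 0.50 (SD, n = 6 each), and the difference of 2.33 ± 0.42 (SE), or 5.03-fold, was the largest of the 5 on this scale, though the order of the time points changed with the processing. With normexp background correction the 2 h difference, 1.03, was the smallest, with the highest detection limit of any array as floor 48 h was the largest (1.64, against 1.35 at 2 h), and with array brightness as a covariate 24 h was (2.40, against 2.32).

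At 24 h the IR arrays ran from 132 to 243 (median 189) and the sham arrays from 39.1 to 62.4 (median 50.3), without overlap. Both groups were tight, with log2 means of 7.57 ± 0.30 and 5.65 ± 0.27 (SD, n = 6 each), and differed by 1.91 ± 0.42 (SE), or 3.77-fold. At 48 h miR-206 had its highest log2 mean and its highest single array in both treatments, with 193 to 599 after IR (median 299, against 306 at 2 h) and 44.3 to 202 after sham surgery (median 76.1). Sham replicate 1 exceeded 1 of the 6 IR arrays. The log2 means were 8.33 ± 0.58 and 6.37 ± 0.72 (SD, n = 6 each), a difference of 1.96 ± 0.42 (SE), or 3.90-fold.

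By 7d the IR arrays had 93.0 to 159.6 (median 122) and the sham arrays 37.5 to 66.3 (median 47.3), again without overlap. The log2 means were 6.95 ± 0.29 and 5.61 ± 0.34 (SD, n = 6 each). The difference, 1.34 ± 0.42 (SE), or 2.52-fold, was the smallest of the 5 on this scale. With the floor set at the highest detection limit of any array (90.6, that of IR replicate 4 at 7d), which lies above every sham array of 7d, it was 0.45 and no longer called. Differences at separate time points were not tested against each other.

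**Figure D2:**
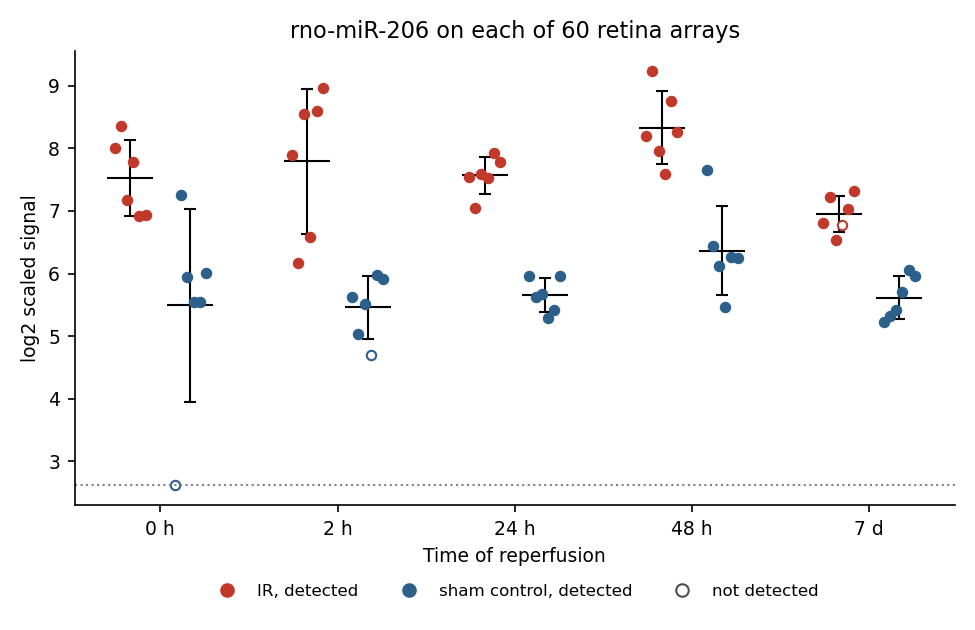
Log2 scaled signal of rno-miR-206 (y axis) on each of 60 arrays by time of reperfusion; red points are IR, blue points sham control, open points were not detected, black bars give the mean ± SD of 6 arrays, and the dotted line is the floor (log2 2.63). IR means of 6.95 to 8.33 stood above sham means of 5.46 to 6.37, with single sham arrays inside the IR range at 0 h and 48 h.

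In the order of group means, the 5 IR groups came first (48 h, 2 h, 24 h, 0 h, 7d) and the 5 sham groups followed (48 h, 24 h, 7d, 0 h, 2 h). No neighbors in this order differed by more than the larger of their SDs, including the lowest IR group (7d, 6.95) and the highest sham group (48 h, 6.37).

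The limma fit over all 60 arrays and 159 miRs called a miR when its fold change was 2 or more and its adjusted p (Benjamini-Hochberg) 0.05 or less. It called miR-206, the only member tested, higher at all 5 time points. Of all 159 miRs, it called higher 6.29% at 0 h, 5.03% at 2 h, 11.9% at 24 h, 10.1% at 48 h and 7.55% at 7d. Since the members were picked with these contrasts known, nothing is read from that count. Every IR array stood above every sham array, as for miR-206 at 2 h, 24 h and 7d, for 4.4% of the 159 miRs at 0 h, 2.52% at 2 h, 17% at 24 h, 6.29% at 48 h and 15.1% at 7d. miR-206 ranked 4, 2, 8, 5 and 9 of 159 by the size of its difference, in order of time, whereas the median difference over all 159 miRs lay between -0.15 and 0.02.

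Measurements from the 2 probes of miR-206, which span 15 and 16 bases of the mature miR with 10 spots each, followed each other with a Pearson r of 0.997 over the 60 arrays (log2 signals). This r is a description, since both probes lie on the same arrays and overlap in sequence. Taken alone, the 15-base probe gave IR minus sham differences of 2.17, 2.42, 1.91, 2.00 and 1.26 in order of time, and the 16-base probe 1.94, 2.27, 1.88, 1.90 and 1.26.

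The arrays were scanned in 3 sessions, each with as many IR as sham arrays. Within scan and time point, miR-206 was higher in IR in 15 of 15 comparisons of 1 to 3 arrays per treatment, by 0.93 to 2.83 on the log2 scale. This count is a description, since miR-206 was chosen with these differences known, and it was not made over all 159 miRs. No slide allows such a comparison. Slides 2 and 5 held both treatments, but of different time points. On slide 2, the 3 IR arrays (48 h and 7d) had scaled signals of 112 to 599 and the 5 sham arrays (0 h and 2 h) of 6.06 to 153. On slide 5, the 3 IR arrays had 93.0 to 193 and the 5 sham arrays (0 h, 2 h and 24 h) 26.1 to 51.3. With the slide as a block, the 7d difference was 1.61 ± 0.69 (SE), larger than without it but with a wider error, and was no longer called.

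The direction at 24 h and 7d rested on the scaling between arrays. Without it, the log2 IR minus sham difference of miR-206 was 0.98 at 0 h, 2.37 at 2 h, -0.24 at 24 h, 0.77 at 48 h and -1.25 at 7d. On that scale nearly all miRs moved the same way, with 138 of 159 called lower at 24 h and 151 of 159 at 7d. The deposited signals before scaling had medians of 69.8 in IR and 79.9 in sham at 24 h, and of 53.8 in IR and 92.5 in sham at 7d. The median unscaled difference over the 159 miRs was -1.0, 0.03, -2.07, -1.29 and -2.54 in order of time. Relative to that median, miR-206 was higher in IR by 1.98, 2.34, 1.83, 2.06 and 1.29. At 24 h and 7d miR-206 was therefore higher relative to the other miRs of the arrays but not in unscaled signal. Over the 60 arrays, scaled miR-206 correlated with array brightness at a Pearson r of -0.41 (Spearman rho -0.46). As deviations from the group means r was 0.17 (rho 0.17). Among the 30 IR arrays alone miR-206 was higher on brighter arrays, with r 0.50 (0.41 as deviations from the group means), whereas among the 30 sham arrays r was -0.04 (-0.18 as deviations). These r are descriptions over arrays that share groups, slides and scans. The part of brightness in the differences was not tested. With brightness as a covariate the differences were 2.28, 2.32, 2.40, 2.23 and 1.92 in order of time.

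**Figure D3:**
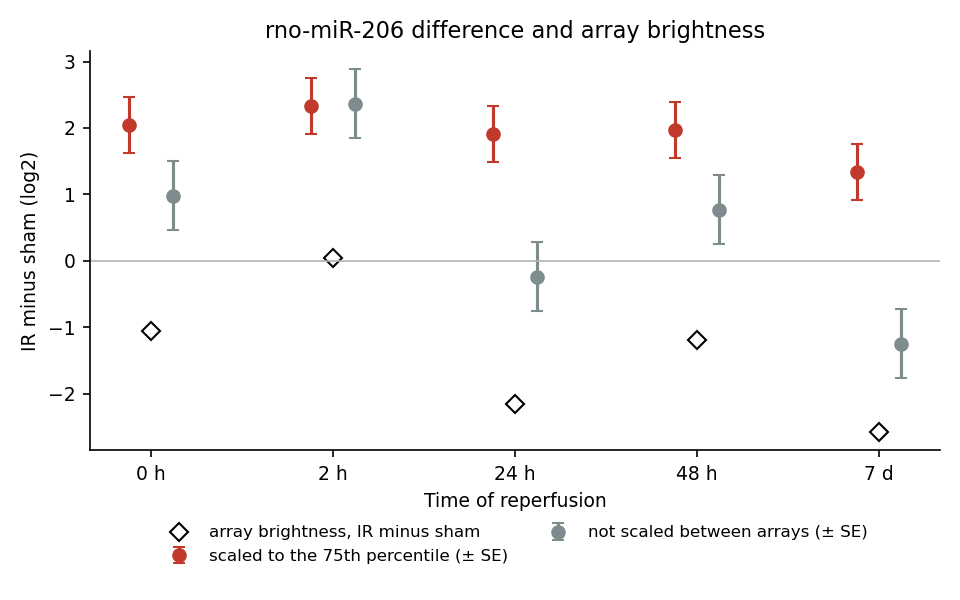
IR minus sham difference (log2, y axis) of rno-miR-206 by time of reperfusion, scaled to the 75th percentile (red, ± SE) and not scaled (grey, ± SE), with the IR minus sham difference in array brightness (open diamonds). The scaled differences lay between 1.34 and 2.33, whereas the unscaled ones fell to -0.24 at 24 h and -1.25 at 7d, where brightness differed by -2.15 and -2.58.

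miR-1, which shares the seed of miR-206, was seldom above background. It has probes of its own (20 and 21 bases), and its level is not set against that of miR-206. At 0 h its scaled signal ran from -5.99 to 59.6 on the IR arrays (median 16.0) and from -1.83 to 5.40 on the sham arrays (median -0.26). At 2 h it ran from 2.77 to 42.2 in IR (median 25.5) and from -2.58 to 4.39 in sham (median 1.21). At both times 5 of 6 IR arrays stood above every sham array on the floored scale. Detection was sparser than these ranges imply, on 2 IR arrays and 1 sham array at 0 h and on 4 IR arrays and no sham array at 2 h. The floored log2 mean at 2 h was 4.30 ± 1.00 in IR (SD, n = 6), where 4 of 6 arrays measured miR-1. In sham it was 2.63 (n = 6). With each sham array set at the highest of its lowest detected signal, the floor and its own signal, miR-1 was 2.99-fold higher in IR. This is not a lower bound, since IR arrays without detection kept their floored signals. The log2 difference at 2 h was 0.30 with normexp background correction and 0 with the highest detection limit of any array as floor.

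At 24 h miR-1 was detected on no IR array (scaled -10.9 to 36.2, median 10.3) and on 1 sham array (2.59 to 6.49, median 4.83). At 48 h it was detected on 1 array of each treatment, with -3.53 to 33.03 in IR (median 17.9) and 3.58 to 18.5 in sham (median 6.01). At 7d no IR array (-5.78 to 13.2, median 5.44) and 1 sham array (2.45 to 8.60, median 4.45) detected it. The IR arrays of these times spread to both sides of the sham arrays. The floored log2 differences were 1.39, 1.67, 0.91, 1.08 and 0.26 in order of time, and they depend on the processing. With a floor of 1 signal unit they were 2.81 at 0 h, 3.45 at 2 h and -0.34 at 7d. With the highest detection limit of any array as floor all 5 were 0. With normexp background correction they were 1.31, 0.30, 1.32, 1.45 and 1.76. Taken alone and floored at 1, the 20-base probe gave 2.61, 3.22, -0.14, 0.90 and -0.73, and the 21-base probe 2.58, 2.95, 1.10, 0.91 and 0.17. All 4 sham arrays on which miR-1 was detected belonged to the third scan and had scaled signals of 4.73 to 8.60, whereas signals of 10.3 to 36.2 were not called detected on other IR arrays. Detection counts of miR-1 in IR and sham thus had different signal limits.

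Across arrays, miR-1 and miR-206 moved together. Their log2 signals had a Pearson r of 0.73 (Spearman rho 0.71) over the 60 arrays, and 0.76 (rho 0.70) without the 2 arrays farthest from the median of miR-206. As deviations from the group means r was 0.47 (rho 0.52). Among the IR arrays alone r was 0.66 (n = 30, 0.64 as deviations from the group means). Among the sham arrays it was 0.45 (n = 30, 0.36 as deviations), with miR-1 at the floor on 25 of them. Within the 3 scans it was 0.74, 0.81 and 0.75 (n = 22, 22 and 16). miR-1 itself correlated with array brightness at r 0.65 among the IR arrays (0.53 as deviations). Among the sham arrays that r was -0.07 (-0.27 as deviations). The part of brightness in the r of miR-1 and miR-206 was not tested. These r are descriptions, with no p, over arrays that share group, slide, scan and brightness. The full mature sequences of both miRs are the same at 19 of 22 bases. The miR-206 probes span 15 and 16 bases counted from the 3′ end, a stretch that takes in the substitutions at positions 11, 21 and 22.

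**Figure D4:**
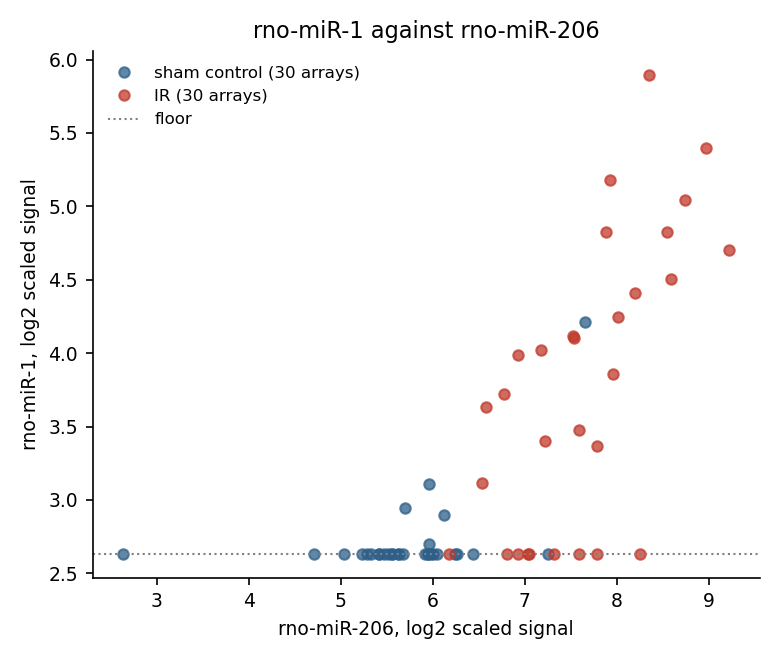
Log2 scaled signal of rno-miR-1 (y axis) against that of rno-miR-206 (x axis), 1 point per array, red for IR and blue for sham control (30 each), with the floor as a dotted line. Points above the floor in rno-miR-1 were mostly IR arrays with high rno-miR-206 (r 0.73 over 60 arrays), and 34 arrays lay on the floor.

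miR-133a and miR-133b, the cluster partners of miR-1 and miR-206, gave no measurable level in either treatment. The scaled signal of miR-133a ran from -31.4 to -1.81 on the IR arrays (median -10.4) and from -14.2 to 1.74 on the sham arrays (median -4.41). That of miR-133b ran from -44.6 to 3.41 in IR (median -5.38) and from -7.59 to 5.46 in sham (median -0.95). On the floored scale all 60 values of each were the same, so no difference, order of groups or correlation could be had. The 7 sham arrays with a detection call for miR-133b were 7 of the 8 sham arrays of the third scan (3.56 to 5.46), and the 8 IR arrays of that scan had none. miR-206 was thus measured on nearly all arrays, whereas miR-133b, encoded 3882 bases away within the span of the same long non-coding RNA gene, was not well above background on any IR array.

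Among other muscle-enriched miRs, 1 could be tested and none was called. Of 8 listed, rno-miR-208, rno-miR-499, rno-miR-378 and rno-miR-1* were on the array. rno-miR-208, encoded in a cardiac myosin gene, was detected on no array, and rno-miR-499, from a slow myosin gene, on 6 sham arrays and no IR array (scaled -12.2 to 6.24). rno-miR-1*, the passenger strand of miR-1, was detected on 9 arrays (3 IR, 6 sham), with medians of 11.4 in IR and 4.10 in sham. rno-miR-378, which is also made in fat and other metabolic tissue, was the only miR of the list in the fit. It was called at none of the 5 time points (log2 differences of -0.50 to 0.02). Among markers of other cells, the summed signal of the myeloid miRs rno-miR-223 and rno-miR-142-3p was 6.69 to 106.5 in IR (median 30.5) and 2.71 to 25.4 in sham (median 10.9). Of these, rno-miR-223 was detected on 16 arrays (8 IR, 8 sham) and rno-miR-142-3p on none. Smooth muscle and pericyte miRs, rno-miR-143 and rno-miR-145, summed to 35.7 to 67.6 in IR and 41.3 to 64.9 in sham, with rno-miR-145 detected on no array. Of the pigment epithelium and lens or cornea miRs, rno-miR-184 was the only listed marker called, lower at 7d. At that time 17 of all 159 miRs were called lower. rno-miR-204 and rno-miR-211 of the same list were not called (log2 differences of -0.11 and -0.10 at 7d). rno-miR-184 was detected on 33 arrays with scaled signals of -12.03 to 1875. Its log2 differences were 0.96, 1.85, -1.71, -0.12 and -3.34 in order of time. The part of these cells in the miR-206 difference was not tested.

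The miRs whose pattern over the 60 arrays was most like that of miR-206, among 208 other miRs detected on at least 6 arrays, were rno-miR-672 (Pearson r 0.98), rno-miR-539 (r 0.97) and rno-miR-466b (r 0.96). As deviations from the group means r was still 0.96, 0.95 and 0.92. None of the 3 shares the seed of miR-206, and none is in its cluster. Median scaled signals in IR and sham were 477 and 155 for rno-miR-672, 127 and 25.1 for rno-miR-539, and 572 and 233 for rno-miR-466b. Their log2 differences ran from 1.13 (rno-miR-672 and rno-miR-466b at 7d) to 2.60 (rno-miR-539 at 2 h). Of the 159 miRs in the fit, 4 were called higher at all 5 time points, and these were miR-206 and the same 3 miRs.

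**Figure D5:**
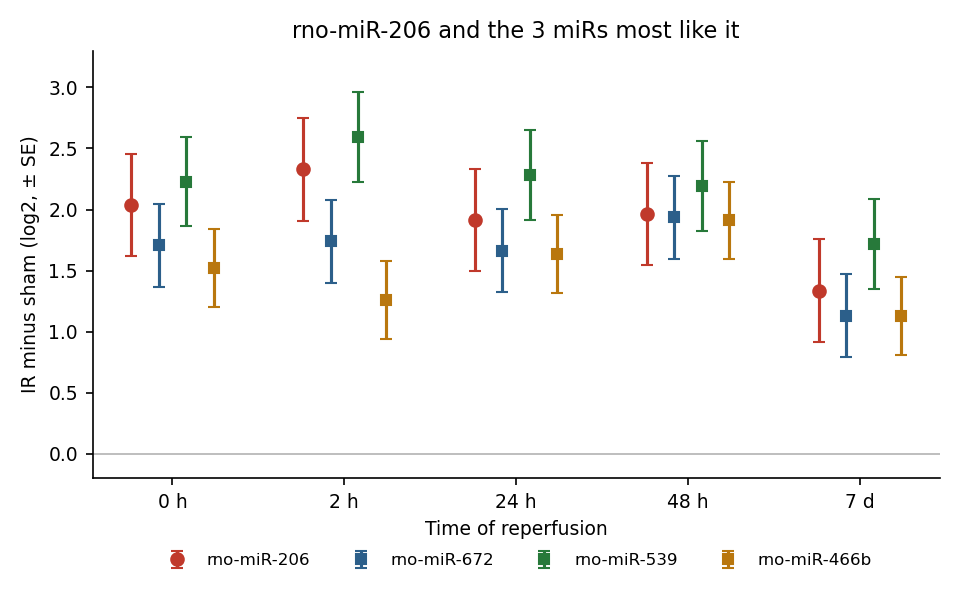
IR minus sham difference (log2, ± SE, y axis) of rno-miR-206 and of the 3 miRs with the most similar signals over 60 arrays, by time of reperfusion, on the scaled data. All 20 values are above 1, and each of the 4 miRs had its smallest difference at 7d.

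Their sequences are printed because they hold a run that miR-206 and miR-1 also hold, here in capitals, and that was noticed after the values were seen. Sequences are from RefSeq (GRCr8). The arm of rno-miR-539 was settled by the spacing of the probes. RefSeq lists arms 5p and 3p for rno-miR-672 and rno-miR-466b, and which of them the array measures was not settled, so that the 5p arms are printed only because they hold the run.
rno-miR-206: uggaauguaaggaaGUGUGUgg
rno-miR-1: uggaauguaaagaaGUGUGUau
rno-miR-539: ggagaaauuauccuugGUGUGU
rno-miR-672: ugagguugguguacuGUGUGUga
rno-miR-466b: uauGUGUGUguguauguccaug

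Searched as the letters GUGUGU in the mature strand, and in either arm where the arm was not settled, the run was found in 7 of the 298 array miRs with a sequence, 2.35%, and in 1.30% of the 692 distinct mature sequences in the RefSeq table. The 2.35% is a share of miRs, 218 of the 298 with a settled arm, and the 1.30% a share of single mature strands. The 7 miRs were miR-206, miR-1, rno-miR-539, rno-miR-672, rno-miR-466b, rno-miR-466c and rno-miR-32. Those that passed the detection filter were miR-206, rno-miR-539, rno-miR-672 and rno-miR-466b, the 4 miRs called higher at all 5 time points. miR-1, rno-miR-466c and rno-miR-32 did not pass the filter. Of the 159 miRs that passed, 134 had a sequence to search. rno-miR-672 and rno-miR-466b are counted through an arm that was not settled. The other 2 members, miR-133a and miR-133b, do not hold the run. This is a description of letters chosen after the fact, with no test. Whether the probes of these miRs also capture other RNA that holds the run was not tested, so the miR-206 signal is that of its probes.

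For miR-1 the most similar signals were those of rno-miR-122 (r 0.96), rno-miR-29b-1* (r 0.89) and rno-miR-333 (r 0.79). rno-miR-122, best known from the liver, was detected on 14 arrays and rno-miR-29b-1* on 11, and 38 and 32 of their 60 values were at the floor, so these r rest on a minority of arrays. miR-206 and miR-1 thus had no other miR of the muscle list among their most similar miRs.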

How the data were processed

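The deposited array files, per the file headers from Agilent Feature Extraction, hold 1-colour (Cy3) intensity values of 60 rat miRNA arrays, annotated on rn4. The authors' signal had background and a spatial trend subtracted, and values below zero were kept. The authors made the deposited table of log2 values in GeneSpring, with scaling per chip to the 75% quantile and a filter on flags, and it served as an alternative (219 miRs, 3 of the 4 members). The total signal per miR was brought to a common 75th percentile over 57 miRs detected on all arrays, floored at 6.20 and log2-transformed. limma (3.58.1, R 4.3.3) was fitted to 10 groups over 159 miRs and was tested on simulated data. P-values rest on the spread between arrays, 1 per rat, so that differences between rats and between arrays are not separated. The members and gene lists were chosen with earlier results of these data known. Named miRs were the members, for each the 3 miRs with the highest r over 60 arrays, and 8 other muscle-enriched miRs. A member detected on under 6 arrays, or constant at the floor, got no similar miRs. Array sequences were assigned an arm where the spacing of probes to neighbors within 20 kb matched RefSeq 3′ ends within 2 bases. No 2 arrays held identical values. Scaling, background, floor, filter, blocks, a covariate, the variance prior, the threshold and each array were varied.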

Additional observations from a re-analysis of the deposited data

Results flagged for a closer look

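In 3 of 18 groups of 6 arrays with any spread, 1 array stood apart from the other 5 by Dixon's criterion, which chance alone meets in about 1 group of 20. Sham control replicate 1 at 0 h was the lowest of its group for rno-miR-206, with a log2 signal of 2.63 against 5.55 to 7.26 on the others. It was not detected there (scaled signal 6.06), although that array detected 150 miRs and was brighter than average (log2 brightness 0.99). Without it, the difference of rno-miR-206 at 0 h was 1.47.

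For rno-miR-1, sham control replicate 1 at 48 h was the highest of its group, in which 4 values lay at the floor. Its log2 signal was 4.21 (scaled 18.5) against 2.63 to 2.89. The same array had the highest rno-miR-206 signal of its group (201.9). Sham control replicate 1 at 24 h, with 2.70 against 2.63 on the others, met the criterion only because its 5 companions lay at the floor, and rno-miR-1 was not detected on either array.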

How the results depend on the processing

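rno-miR-206 kept its direction under every alternative that gave it a value at 0 h, 2 h and 48 h, and at 24 h and 7d under all but the data without normalization between arrays, where the differences were -0.24 and -1.25. In the main analysis 1 member was called at each time point. Without normalization the number was 0 at 0 h, 24 h and 48 h, and at 7d the 1 call was in the other direction. With the highest detection limit as floor (90.6) it was 0 at 0 h and 7d (differences of 0.90 and 0.45). With only the 12 arrays of a time point it was 0 at 0 h, and with the slide as a block 0 at 7d. The differences there, 2.04 and 1.61, were no smaller than in the main analysis, and their errors were wider (SE 0.62 and 0.69). With only miRs detected on every array no member was tested, which gives 0 at all 5 times. It was 2 at 0 h, 2 h and 48 h with miRs detected on at least 1 array or with no filter, and 2 at 0 h and 2 h in the authors' table, the second being rno-miR-1. Apart from where an alternative tested no member or other members, the cause was not tested. Over the alternatives and the single arrays left out, the difference of rno-miR-206 ran, in order of time, from 0.90 to 2.39, from 1.03 (normexp) to 2.65, from -0.24 to 2.40, from 0.77 to 2.30 and from -1.25 to 1.92. Leaving out 1 array at a time gave 1.47 to 2.39, 2.09 to 2.65, 1.84 to 2.02, 1.78 to 2.22 and 1.26 to 1.42, and 1 member called each time. Over all miRs the number called ran, in order of time, from 2 to 84, from 2 to 13, from 6 to 139, from 4 to 121 and from 4 to 151. Replicate numbers did not pair the arrays: same-numbered IR and sham arrays correlated at -0.45 to 0.60 in their deviations, over 0.1 for 15 of 30 pairs, and 7 arrays correlated best with their own number. The replicate block left 1 member called at each time point. Over all 60 arrays, r of rno-miR-206 and rno-miR-1 ran from 0.47 (deviations from group means) to 0.86 (no normalization). Among the sham arrays alone it was 0.45, and 0.36 as deviations. With the highest detection limit as floor rno-miR-1 was constant, so that no r could be had.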
